A study of Mus musculus with 9 samples.

Results

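Antioxidant and glutathione genes were followed in the brown adipose tissue (BAT) of mice during acute cold exposure. They were picked by symbol: the glutathione transferases (Gst of the a, k, m, p, t, o and z classes, and the membrane-bound Mgst), the glutathione peroxidases (Gpx), the peroxiredoxins (Prdx), the thioredoxins and their reductases (Txn, Txnrd), the superoxide dismutases (Sod), both subunits of glutamate-cysteine ligase (Gclc, Gclm), and Gss, Gsr, Nqo1, Hmox1, Srxn1, Nfe2l2, Mt1 and Mt2. The symbols matched 54 of the 16937 genes in the deposited tables by name alone, and the set was proposed with earlier results of these data known. All 54 genes were listed in each of the 3 tables, and 1 of them, Gpx4-ps2, is a pseudogene.

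BAT came from 3 groups of 3 libraries. WT RT mice were wild type and stayed at room temperature (23 °C), WT Cold mice were wild type and spent 8 h at 4 °C, and GCN2 KO Cold mice carried a whole body deletion of GCN2 and spent the same 8 h at 4 °C. GCN2, encoded by Eif2ak4, is a kinase that is activated by amino acid shortage and slows translation. By the study's methods all mice were adults of 12 to 23 weeks, of both sexes, bred for 10 generations on C57Bl/6J and housed singly for 5 days, with cold starting at Zeitgeber time 1 and tissue taken at Zeitgeber time 9. Because the deletion was in the whole body, loss of GCN2 in BAT and loss of GCN2 in other organs cannot be told apart. There was no GCN2 KO group at room temperature, so a difference between genotypes in the response to cold was not tested.

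The columns carry no mouse number, so the libraries of each group go by the letters A, B and C, and their totals over listed genes ran from 27058799 to 30768064 reads. The codes of the WT RT libraries begin differently from those of the cold libraries, and whether WT RT was prepared apart is not given in the sources used here, so preparation and temperature cannot be told apart. All 13 brown adipocyte markers were found, and their summed normalised read count was 538935 to 616254 in WT RT, 794865 to 837184 in WT Cold and 993899 to 1020300 in GCN2 KO Cold. The 12 skeletal muscle markers summed to 70818 to 78919 in WT RT, 69819 to 110936 in WT Cold and 9033 to 41533 in GCN2 KO Cold. The 12 monocyte and macrophage markers summed to 13213 to 20041, 6902 to 10664 and 5615 to 8261 in the same order, and the 6 red blood cell markers to 6861 to 9362, 16827 to 65371 and 33920 to 64278. The 6 fibroblast markers summed to 28508 to 32765, 22995 to 25467 and 16479 to 21221, and the 4 Schwann cell markers to 1508 to 2030, 1991 to 2104 and 1418 to 1466. The 6 endothelial markers summed to 16642 to 20224, 22632 to 25505 and 18849 to 22583, and the 8 lymphocyte markers to 250 to 323, 174 to 235 and 223 to 293. The part of these shifts in the results that follow was not tested, and in whole tissue fewer cells of a type and less RNA per cell cannot be told apart. Eif2ak4 itself had normalised read counts of 347, 371 and 350 under the GCN2 KO Cold label, above the 171, 225 and 231 of WT Cold in their shared table (adjusted p = 0.0932). The reads were summed over all exons and the deleted exons are not given in the sources used here, so this count does not check the label, and GCN2 KO Cold stands throughout for the libraries labelled so. The title of 1 of the 3 samples also carries the letters WT, and that sample was grouped by its genotype label, GCN2 KO.

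Superoxide made by the respiratory chain is turned into hydrogen peroxide by the superoxide dismutases, and glutathione peroxidases and peroxiredoxins reduce the peroxide. Most peroxidases of the Gpx family draw electrons from glutathione, a tripeptide made by glutamate-cysteine ligase and glutathione synthetase. Peroxiredoxins draw them mostly from thioredoxin, and both carriers are reduced again with NADPH. Glutathione transferases couple glutathione to reactive lipids and foreign compounds. Many of these genes are induced by the transcription factor NRF2 (Nfe2l2), which binds antioxidant response elements (ARE) together with small Maf proteins, and metallothioneins bind zinc and copper and are induced through metal response elements (MRE) by MTF1 (Mtf1) and by glucocorticoids. BAT is dense in mitochondria, and its heat production runs on a high rate of fatty acid oxidation.

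The start sites of the metallothioneins are shown because Mt1 and Mt2 had the largest log2 fold changes of the 54 genes in both comparisons with WT RT. RefSeq promoter windows on GRCm38.p6, 250 bases before to 50 bases after each start site, were found for 46 of the 54 genes, 60 windows in all. The search letters for the MRE core were TGCACNC and TGCGCNC on both strands, set in capitals here, and positions count the first transcribed base as 0. The Mt1 window is chr8:94178839-94179138 (+) and the Mt2 window is chr8:94172368-94172667 (+).
Mt1: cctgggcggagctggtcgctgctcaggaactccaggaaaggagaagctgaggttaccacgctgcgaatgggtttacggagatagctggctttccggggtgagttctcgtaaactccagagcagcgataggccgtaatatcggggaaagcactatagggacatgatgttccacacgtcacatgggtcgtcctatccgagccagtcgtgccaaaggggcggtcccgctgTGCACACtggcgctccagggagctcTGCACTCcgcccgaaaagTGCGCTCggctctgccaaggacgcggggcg
Mt2: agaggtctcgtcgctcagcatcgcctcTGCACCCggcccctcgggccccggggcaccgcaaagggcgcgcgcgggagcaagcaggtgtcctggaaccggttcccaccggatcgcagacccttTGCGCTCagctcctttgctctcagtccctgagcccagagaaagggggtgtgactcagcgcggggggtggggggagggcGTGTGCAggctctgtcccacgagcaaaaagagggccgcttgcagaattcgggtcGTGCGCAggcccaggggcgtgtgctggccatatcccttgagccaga

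Mt1 held 3 MRE matches, with first bases at -23, 2 and 20, and Mt2 held 4, at -223, -128, -50 and 4. Of all 32851 promoter windows of the same length, 25.7% held at least 1 match, 1.97% held 3 or more and 0.517% held 4 or more. Among the windows of the 54 genes, 18 of 60 (30.0%) held a match. GENCODE M21 places starts of Mt1 transcripts at 94179082, 94179211 and 94179241 of chromosome 8 and of Mt2 transcripts at 94172664 and 94172860, none of them the base from which positions are counted here, so positions relative to those starts differ.

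Stretches around ARE matches are shown for every gene with a match among the 24 whose counts are given library by library under the rule for named genes, so that the matches can be read beside the levels. The letters searched were TGACNNNGC and TGAGNNNGC on both strands, of which the second form was added after matches to the first had been seen, and each stretch is turned so that the match, in capitals, reads in these letters.
Nfe2l2, chr2:75704885-75704913 (-): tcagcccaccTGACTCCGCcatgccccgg
Srxn1, chr2:152105356-152105384 (-): ccagagaggaTGAGTCGGCtctcagtaga
Srxn1, chr2:152105469-152105497 (+): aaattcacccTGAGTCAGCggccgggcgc
Srxn1, chr2:152105542-152105570 (-): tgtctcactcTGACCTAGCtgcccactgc
Prdx1, chr4:116685456-116685484 (-): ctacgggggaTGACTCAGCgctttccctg
Prdx1, chr4:116685604-116685632 (-): gaaagagccgTGAGAACGCaggaagaggt
Gclm, chr3:122245413-122245441 (-): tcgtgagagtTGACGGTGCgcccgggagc
Sod1, chr16:90220696-90220724 (-): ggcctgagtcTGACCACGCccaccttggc
Mt2, chr8:94172529-94172557 (+): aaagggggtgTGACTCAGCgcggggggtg
Mgst1, chr6:138140461-138140489 (-): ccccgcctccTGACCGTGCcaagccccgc
Gstm7, chr3:107931725-107931753 (-): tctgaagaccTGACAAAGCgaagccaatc

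In Gclm the ARE match overlaps an MRE match. An ARE match stood in 19 of the 60 windows (31.7%) and in 27.8% of all windows. Of the 18 genes with a match, 8 rose and 1 fell in WT Cold relative to WT RT, and of the 28 genes with windows but no match, 3 rose and 5 fell, where 13.6% of all genes rose and 14.1% fell. Between GCN2 KO Cold and WT RT there were 10 rises and 1 fall among the 18, and 10 rises and 2 falls among the 28, where 16.4% of all genes rose and 17.8% fell. Split by the MRE letters, 5 of the 16 genes with a match rose and 4 fell in WT Cold, and 6 of the 30 without one rose and 2 fell. For GCN2 KO Cold these counts were 5 rises and 3 falls with an MRE match, and 15 rises and 0 falls without. No difference between these splits was tested. A match is a description of letters only, and the windows hold no distal enhancers.

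Levels are given as normalised read counts, the recovered reads divided by size factors set over all 9 libraries. Fold changes are differences of log2(normalised count + 1) fitted by limma within each deposited table, and an adjusted p is the Benjamini-Hochberg value over all genes of that table. A gene rose or fell where its adjusted p was under 0.05, and it was called where its log2 fold change was also over 1 in size.

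In WT Cold relative to WT RT, 20 of the 54 genes passed the adjusted p, 13 higher and 7 lower, against a background of 27.7% of all 16679 genes, 13.6% higher and 14.1% lower, so the share of the 54 that fell was near that of all genes. Called were 4 genes, against a background of 8.14%: Mt2, Mt1 and Hmox1 were higher (background 2.99%) and Gstm4 was lower (background 5.15%). The groups did not overlap for 18 genes that were higher and 12 that were lower in WT Cold, 30 in all against a background of 45.5% (22.8% in each direction). The median log2 fold change of the 54 genes was 0.08, beside 0.003 over all genes. With library totals in place of size factors the median of all genes moved to -0.08, and the split among the 54 became 8 higher and 9 lower. The count past the adjusted p was 12 without WT RT library B and 13 without WT Cold library A or B.

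Between GCN2 KO Cold and WT Cold few single genes passed the adjusted p. None of the 54 genes was called by limma, DESeq2 or edgeR, against a background of 0.257% (0.0613% higher and 0.196% lower), and 1 gene, Gsta4, passed the adjusted p and was higher, against 0.405% (0.178% higher and 0.227% lower). At an unadjusted p under 0.05 there were 17 genes, 16 higher and 1 lower, beside 15.3% of all 16312 genes. The fold changes leaned upwards, with 40 of the 54 above 0 and a median log2 fold change of 0.20, beside -0.003 over all genes. The groups did not overlap for 20 genes that were higher and 3 that were lower in GCN2 KO Cold, against backgrounds of 11.3% and 10.7%, or 22.0% in either direction. With library totals in place of size factors the median of all genes was -0.12, 33 of the 54 fold changes were above 0, and none passed. DESeq2 passed 5 genes, against 3.22% of all genes in DESeq2, and edgeR 0, against 0.27%, and without any 1 of the 6 libraries 0 passed.

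Compared with WT RT, GCN2 KO Cold had more rises than falls. Of the 54 genes 27 passed the adjusted p, 24 higher and 3 lower, against a background of 34.2%, 16.4% higher and 17.8% lower. Called were 4 genes, against a background of 10.6%, and these were Mt2, Mt1, Srxn1 and Gstm7, all higher (backgrounds of 3.01% higher and 7.58% lower). The groups did not overlap for 26 genes that were higher and 6 that were lower, against backgrounds of 23.7% and 25.5%, or 49.2% in either direction. The median log2 fold change was 0.32, beside 0.009 over all genes. With library totals the median of all genes was -0.19 and the split among the 54 was 16 higher and 8 lower. Both comparisons with WT RT use the same 3 WT RT libraries, so their values stand side by side and are not independent.

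**Figure D1:**
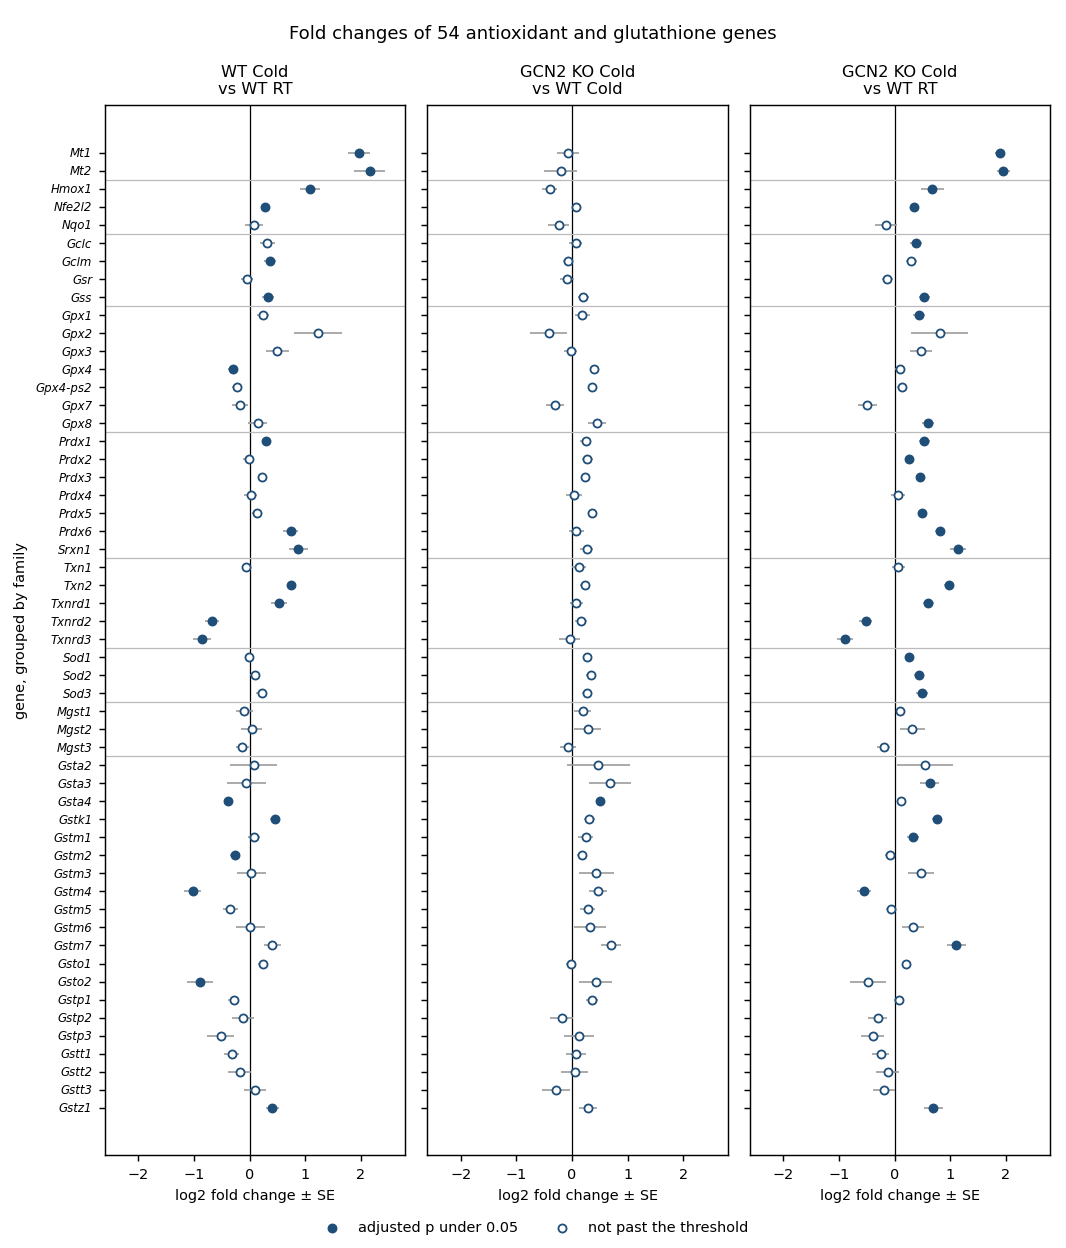
Log2 fold change (x axis, ± SE) of each of the 54 genes (y axis, grouped by family) in the 3 comparisons, with 3 libraries per group. Filled points passed an adjusted p of 0.05: 13 higher and 7 lower in WT Cold vs WT RT, 1 higher in GCN2 KO Cold vs WT Cold, and 24 higher and 3 lower in GCN2 KO Cold vs WT RT.

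The metallothioneins rose most. Mt1 had normalised read counts of 8072, 6932 and 8338 in WT RT, 24072, 27657 and 42453 in WT Cold, and 29547, 27982 and 29583 in GCN2 KO Cold. All 6 cold libraries stood above all WT RT libraries, and WT Cold library C was the highest. The log2 fold change of Mt1 was 1.97 ± 0.20 (SE) in WT Cold vs WT RT, a 3.92-fold rise (adjusted p = 0.000641), and 1.90 ± 0.09 in GCN2 KO Cold vs WT RT (adjusted p = 2.26e-05). Mt2 had 1693, 1813 and 2000 normalised reads in WT RT, 6026, 6625 and 13766 in WT Cold, and 8410, 6278 and 6821 in GCN2 KO Cold. It showed the same order, with no overlap between WT RT and either cold group and WT Cold library C again on top. It rose by 2.16 ± 0.28 on the log2 scale, or 4.46-fold, in WT Cold (adjusted p = 0.00178), and by 1.96 ± 0.12 in GCN2 KO Cold vs WT RT (adjusted p = 6.54e-05). Without WT Cold library C the rises in WT Cold were 1.73 for Mt1 and 1.78 for Mt2. Between the cold groups the log2 fold changes were -0.07 ± 0.19 for Mt1 and -0.20 ± 0.30 for Mt2, the groups overlapped, and both values became 0.17 without WT Cold library C. Per kilobase of exon, Mt1 had group means of 6245, 25196 and 23304 normalised reads per kilobase in WT RT, WT Cold and GCN2 KO Cold. The same level of Gpx4 was 14496, 11751 and 15438, so on this scale Mt1 lay below Gpx4 in WT RT and above it in both cold groups. The order depends on exon lengths taken over all annotated transcripts, 1246 bases for Mt1 and 1724 for Gpx4. For Mt1 that length covers the whole span from 94179082 to 94180327 with no gap between exons, so the mature transcript may be shorter.

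**Figure D2:**
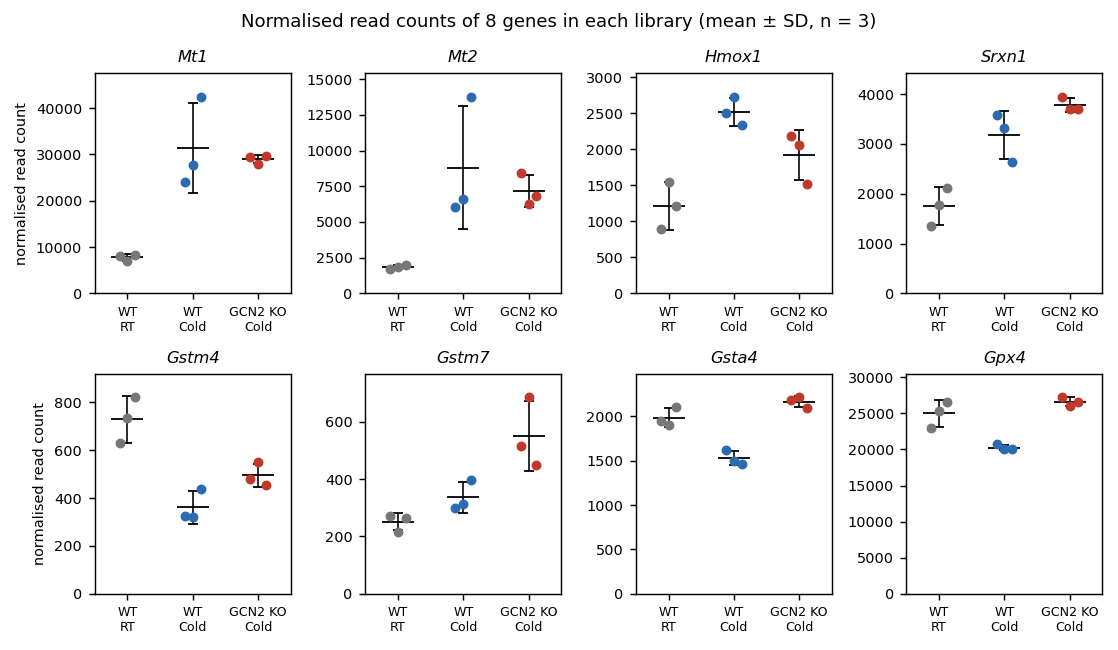
Normalised read count (y axis, from 0) of 8 genes in each of the 3 libraries of WT RT, WT Cold and GCN2 KO Cold, with the mean and SD as bars. Mt1 and Mt2 in all 6 cold libraries lie above WT RT, Gstm4 in all 6 lies below it, and for Gsta4 and Gpx4 the 3 WT Cold libraries lie below every library of the other 2 groups.

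Nfe2l2, which encodes NRF2, rose by a small and even step. Its normalised read counts were 1864, 1830 and 1928 in WT RT, 2296, 2190 and 2335 in WT Cold, and 2248, 2485 and 2466 in GCN2 KO Cold. Every cold library was above every WT RT library, and the log2 fold changes were 0.28 ± 0.07 in WT Cold (adjusted p = 0.022) and 0.35 ± 0.07 in GCN2 KO Cold (adjusted p = 0.00749), both relative to WT RT. Both missed the threshold with library totals (adjusted p = 0.0759 and 0.121). The rise in WT Cold also missed it without WT RT library A or B or WT Cold library A (adjusted p up to 0.073). Hmox1, the inducible haem oxygenase that splits haem into biliverdin, iron and carbon monoxide, had 886, 1546 and 1215 normalised reads in WT RT, 2498, 2726 and 2332 in WT Cold, and 2183, 2055 and 1523 in GCN2 KO Cold. WT Cold lay above both other groups without overlap, whereas GCN2 KO Cold library C fell just below WT RT library B. The log2 fold change of Hmox1 was 1.08 ± 0.18 in WT Cold vs WT RT (adjusted p = 0.00485), 0.68 ± 0.21 in GCN2 KO Cold vs WT RT (adjusted p = 0.035) and -0.41 ± 0.14 in GCN2 KO Cold vs WT Cold (adjusted p = 0.241). It was 0.87 in WT Cold vs WT RT without WT RT library A, under the fold needed for a call. The rise in GCN2 KO Cold missed the threshold without WT RT library A or C or GCN2 KO Cold library A or B (adjusted p up to 0.0957). Nqo1, a quinone reductase and a common readout of NRF2, was low and did not pass in any comparison, with 87, 93 and 93 normalised reads in WT RT, 92, 94 and 104 in WT Cold, and 67, 89 and 90 in GCN2 KO Cold.

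Of the 4 genes of glutathione synthesis and reduction 2 rose in each cold group relative to WT RT and none fell, where the shares of all genes that rose were 13.6% (WT Cold) and 16.4% (GCN2 KO Cold). Gclm, the modifier subunit of glutamate-cysteine ligase, had 1509, 1676 and 1902 normalised reads in WT RT, 2223, 2026 and 2316 in WT Cold, and 1968, 2010 and 2282 in GCN2 KO Cold. It was higher in every cold library, by a log2 fold change of 0.37 ± 0.10 in WT Cold (adjusted p = 0.032) and 0.30 ± 0.10 in GCN2 KO Cold (adjusted p = 0.0551). The rise in WT Cold missed the threshold without WT RT library A or B or WT Cold library A or C (adjusted p up to 0.0972). Gclc, the catalytic subunit, had 604, 755 and 732 in WT RT, 764, 872 and 986 in WT Cold, and 849, 963 and 913 in GCN2 KO Cold. It passed in GCN2 KO Cold vs WT RT (0.38 ± 0.11, adjusted p = 0.027) and had 0.32 ± 0.13 in WT Cold (adjusted p = 0.101). The pass was lost without WT RT library A or GCN2 KO Cold library B or C (adjusted p up to 0.0811). Gss, glutathione synthetase, had 911, 777 and 783 in WT RT, 1095, 1076 and 943 in WT Cold, and 1181, 1142 and 1256 in GCN2 KO Cold. Gss moved by 0.33 ± 0.10 on the log2 scale in WT Cold (adjusted p = 0.048) and 0.54 ± 0.10 in GCN2 KO Cold (adjusted p = 0.00373). The rise in WT Cold missed the threshold without WT RT library B or C or WT Cold library A or B. Gsr, which reduces oxidised glutathione with NADPH, overlapped between all groups, with 987, 1070 and 1026 in WT RT, 876, 1011 and 1137 in WT Cold, and 1057, 859 and 912 in GCN2 KO Cold. Between the cold groups 0 of these 4 genes passed in limma, DESeq2 or edgeR (0.405%, 3.22% and 0.27% of all genes), and 0 had an unadjusted p under 0.05 (15.3% of all genes).

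Of the 7 glutathione peroxidase genes none rose and 1 fell in WT Cold vs WT RT (13.6% and 14.1% of all genes). In GCN2 KO Cold vs WT RT 2 rose and none fell (16.4% and 17.8%). Gpx4, which reduces lipid hydroperoxides in membranes, had 22959, 25391 and 26624 normalised reads in WT RT, 20719, 20035 and 20020 in WT Cold, and 27260, 26052 and 26533 in GCN2 KO Cold. WT Cold was below every other library, with a log2 fold change of -0.30 ± 0.08 vs WT RT (adjusted p = 0.0252), while GCN2 KO Cold overlapped WT RT (0.09 ± 0.08). That fall missed the threshold without WT RT library B or C or WT Cold library A or B, with adjusted p from 0.0285 to 0.0857 over the 6 libraries left out. GCN2 KO Cold was above WT Cold by 0.39 ± 0.07 (adjusted p = 0.0679), which DESeq2 passed (adjusted p = 0.000739) and edgeR did not (adjusted p = 0.0681). Gpx4-ps2 had 1358, 1575 and 1645 in WT RT, 1285, 1342 and 1305 in WT Cold, and 1634, 1742 and 1666 in GCN2 KO Cold. As a processed copy of Gpx4 it may share reads with its parent, so its values are uncertain and do not count as separate from those of Gpx4. Gpx1, the main cytosolic peroxidase, had 10461, 10036 and 9255 in WT RT, 10068, 12359 and 13120 in WT Cold, and 14223, 14819 and 11437 in GCN2 KO Cold, and it rose in GCN2 KO Cold vs WT RT (0.44 ± 0.11, adjusted p = 0.0166). That rise was lost without WT RT library C or GCN2 KO Cold library B (adjusted p up to 0.0571). Gpx3, the secreted peroxidase, overlapped between all groups, with 31601, 17532 and 22624 in WT RT, 30199, 30448 and 38278 in WT Cold, and 28929, 35970 and 31911 in GCN2 KO Cold. WT RT library A was as high as the cold libraries, and without it the log2 fold change in WT Cold went from 0.49 (adjusted p = 0.114) to 0.72 and passed (adjusted p = 0.0261). Without WT RT library B it went to 0.29 (adjusted p = 0.29). Gpx8, of the endoplasmic reticulum, rose in GCN2 KO Cold vs WT RT (0.60, adjusted p = 0.0037). Gpx2 was uneven, with 323, 307 and 94 normalised reads in WT RT against 462, 531 and 495 in WT Cold. Its log2 fold change was 1.23 (adjusted p = 0.0682), which edgeR did not pass either (adjusted p = 0.088), while DESeq2 called it (1.04, adjusted p = 0.0156).

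Of the 7 peroxiredoxin and sulfiredoxin genes 3 rose and none fell in WT Cold vs WT RT, where 13.6% of all genes rose and 14.1% fell. Among the same 7 genes 6 rose and none fell in GCN2 KO Cold vs WT RT, where 16.4% rose and 17.8% fell, and the family medians were 0.23 and 0.49. Srxn1, which repairs over-oxidised peroxiredoxins, had 1354, 1764 and 2116 normalised reads in WT RT, 3579, 3310 and 2645 in WT Cold, and 3944, 3706 and 3705 in GCN2 KO Cold. Srxn1 rose by 0.87 ± 0.17 on the log2 scale in WT Cold (adjusted p = 0.00899) and 1.14 ± 0.15 in GCN2 KO Cold (adjusted p = 0.000971), with no overlap with WT RT in either. Relative to WT RT, GCN2 KO Cold was under the fold for a call without WT RT library A (0.97) and with library totals (0.94). Prdx6, which also has phospholipase activity, had 8637, 9005 and 7565 in WT RT, 13807, 17002 and 11662 in WT Cold, and 15124, 14680 and 14539 in GCN2 KO Cold. It rose by 0.74 ± 0.14 in WT Cold (adjusted p = 0.00722) and 0.82 ± 0.08 in GCN2 KO Cold (adjusted p = 0.000403). Prdx1, of the cytosol, had 10201, 11080 and 10943 in WT RT, 12892, 13143 and 13484 in WT Cold, and 14319, 14565 and 18174 in GCN2 KO Cold, a step of 0.29 ± 0.07 in WT Cold (adjusted p = 0.0163) and 0.54 ± 0.10 in GCN2 KO Cold (adjusted p = 0.00525). The step in WT Cold missed the threshold without WT RT library A or WT Cold library B (adjusted p up to 0.0593).

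In 5 of the 7 genes of this family, Prdx1, Prdx2, Prdx3, Prdx5 and Srxn1, each GCN2 KO Cold library was above every other library. Between the cold groups 11.3% of all genes were higher without overlap. Prdx3 and Prdx5 are the mitochondrial peroxiredoxins. Prdx3 had 9332, 10315 and 10579 normalised reads in WT RT, 12460, 11795 and 11288 in WT Cold, and 13610, 13331 and 14795 in GCN2 KO Cold. The 3 groups were separate in that order, and the fold change passed in GCN2 KO Cold vs WT RT (0.47 ± 0.08, adjusted p = 0.00339) and not in WT Cold vs WT RT (0.23 ± 0.08, adjusted p = 0.0589) or between the cold groups (0.23 ± 0.08, adjusted p = 0.222). Prdx5, also found in peroxisomes, had 9428, 8329 and 8623 in WT RT, 9594, 10428 and 8868 in WT Cold, and 11967, 12104 and 13068 in GCN2 KO Cold. All GCN2 KO Cold libraries were above the rest, by 0.49 ± 0.08 relative to WT RT (adjusted p = 0.00246) and 0.36 ± 0.08 relative to WT Cold (adjusted p = 0.129), which DESeq2 passed (adjusted p = 0.0384) and edgeR did not (adjusted p = 0.133). Prdx2 rose in GCN2 KO Cold vs WT RT by 0.26 (adjusted p = 0.0214), and Prdx4, of the endoplasmic reticulum, passed in no comparison.

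Of the 5 thioredoxin and reductase genes, 2 rose and 2 fell in both comparisons with WT RT, beside 13.6% and 14.1% of all genes in WT Cold and 16.4% and 17.8% in GCN2 KO Cold. Txn2, the mitochondrial thioredoxin, had 5555, 5397 and 5871 normalised reads in WT RT, 9022, 10074 and 9161 in WT Cold, and 10259, 10602 and 12277 in GCN2 KO Cold. It had the lowest p of the 54 genes in WT Cold vs WT RT (0.74 ± 0.07, adjusted p = 0.000635) and rose by 0.97 ± 0.09 in GCN2 KO Cold vs WT RT (adjusted p = 0.000233). Txn1, the cytosolic form, overlapped between all groups, at 6742 to 7585 in WT RT, 6597 to 7294 in WT Cold and 6503 to 8808 in GCN2 KO Cold. Txnrd1, the cytosolic reductase, rose (0.53 ± 0.14 in WT Cold, adjusted p = 0.0263; 0.60 ± 0.10 in GCN2 KO Cold, adjusted p = 0.00264). Txnrd2, the mitochondrial reductase, fell from 1736, 1948 and 2310 in WT RT to 1223, 1143 and 1378 in WT Cold and 1265, 1522 and 1383 in GCN2 KO Cold. Its log2 fold changes were -0.68 ± 0.12 (adjusted p = 0.0062) and -0.52 ± 0.12 (adjusted p = 0.0111), with no overlap with WT RT. Txnrd3, the thioredoxin-glutathione reductase best known from testis, fell as well, by 0.85 (adjusted p = 0.00805) and 0.89 (adjusted p = 0.00287) on the log2 scale.

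All 3 superoxide dismutases rose in GCN2 KO Cold vs WT RT, where 16.4% of all genes did, and none passed in WT Cold vs WT RT, where 27.7% of all genes did. Sod2, the manganese enzyme of mitochondria, had 16647, 17305 and 19414 normalised reads in WT RT, 19433, 20394 and 17316 in WT Cold, and 24096, 22797 and 25669 in GCN2 KO Cold. Sod1, the copper and zinc enzyme of the cytosol, had 15393, 14902 and 15902 in WT RT, 14691, 15202 and 16144 in WT Cold, and 17357, 18757 and 19584 in GCN2 KO Cold. For both, every GCN2 KO Cold library was above all others, and WT RT and WT Cold overlapped. The log2 fold changes in GCN2 KO Cold vs WT RT were 0.44 ± 0.09 for Sod2 (adjusted p = 0.00651), 0.27 ± 0.08 for Sod1 (adjusted p = 0.0304) and 0.49 ± 0.10 for Sod3, the secreted form (adjusted p = 0.00733). With library totals Sod1 was at 0.06 and no longer passed (adjusted p = 0.499). It also missed the threshold without WT RT library A or B or GCN2 KO Cold library B or C (adjusted p up to 0.0976). In WT Cold vs WT RT 0 of the 3 passed in limma, DESeq2 or edgeR, and 0 had an unadjusted p under 0.05 (40.9% of all genes). Between the cold groups the values were 0.35 ± 0.09 for Sod2 (adjusted p = 0.162), 0.27 ± 0.08 for Sod1 (adjusted p = 0.182) and 0.27 ± 0.09 for Sod3 (adjusted p = 0.245), none of which passed in any of these tools. All 3 had an unadjusted p under 0.05, as did 15.3% of all genes.

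**Figure D3:**
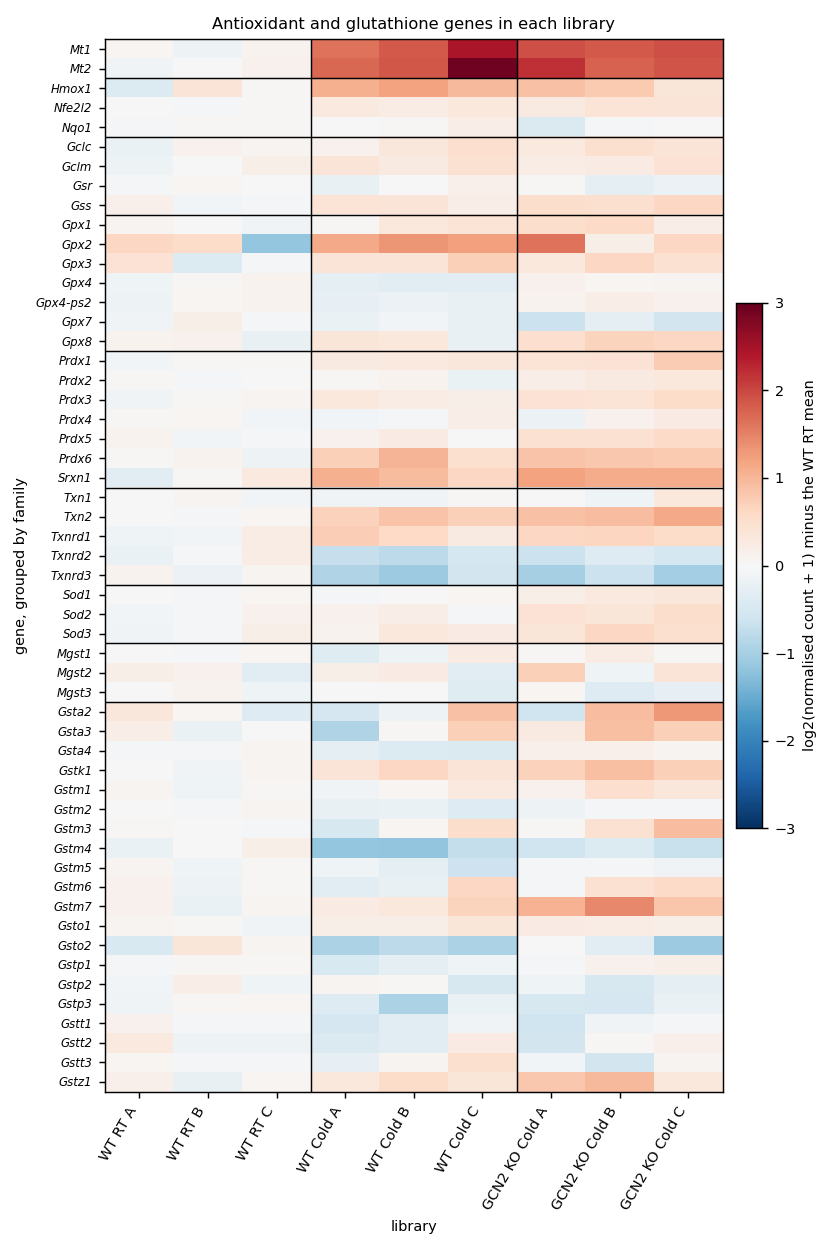
Level of each of the 54 genes (y axis, grouped by family) in each of the 9 libraries (x axis), as log2(normalised count + 1) minus the mean of the 3 WT RT libraries (colour). Mt1 and Mt2 are dark red in all 6 cold libraries, most in WT Cold library C, and Sod1, Sod2, Sod3, Prdx1, Prdx2, Prdx3 and Prdx5 are redder in each GCN2 KO Cold library than in any WT Cold library, while Prdx4 and Prdx6 overlap between the cold groups.

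Of the 20 cytosolic glutathione transferase genes, 2 rose and 4 fell in WT Cold vs WT RT, near the shares of all genes (13.6% and 14.1%), and 5 rose and 1 fell in GCN2 KO Cold vs WT RT (16.4% and 17.8% of all genes). Gstm4 had 629, 737 and 822 normalised reads in WT RT, 324, 320 and 439 in WT Cold, and 481, 549 and 455 in GCN2 KO Cold. All cold libraries were below WT RT, and WT Cold was below GCN2 KO Cold. Gstm4 was at -1.02 ± 0.16 on the log2 scale in WT Cold vs WT RT (adjusted p = 0.00349), and it was under the fold for a call without WT RT library C (-0.93), WT Cold library A (-0.95) or WT Cold library B (-0.94). It was -0.55 ± 0.13 in GCN2 KO Cold vs WT RT (adjusted p = 0.011), and between the cold groups 0.47 ± 0.15 (adjusted p = 0.218). Gstm7, of the same mu class, went the other way, with 271, 217 and 265 in WT RT, 298, 312 and 398 in WT Cold, and 516, 686 and 448 in GCN2 KO Cold. The groups were separate in that order. It rose by 1.11 ± 0.18 in GCN2 KO Cold vs WT RT (adjusted p = 0.00224), and was at 0.94 without GCN2 KO Cold library B and 0.91 with library totals. In WT Cold it was at 0.41 ± 0.16 (adjusted p = 0.0918), and between the cold groups at 0.70 ± 0.18 (adjusted p = 0.164), which DESeq2 passed (adjusted p = 0.0271) and edgeR did not (adjusted p = 0.161).

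Gsta4, an alpha class transferase with a preference for 4-hydroxynonenal and other products of lipid peroxidation, was the gene that passed between the cold groups. It had 1952, 1903 and 2106 normalised reads in WT RT, 1618, 1497 and 1467 in WT Cold, and 2189, 2217 and 2093 in GCN2 KO Cold. WT Cold was below both other groups, which overlapped each other. The log2 fold change was -0.38 ± 0.08 in WT Cold vs WT RT (adjusted p = 0.0103) and 0.50 ± 0.07 in GCN2 KO Cold vs WT Cold, a 1.42-fold difference (adjusted p = 0.0483), with 0.12 ± 0.07 in GCN2 KO Cold vs WT RT. The difference between the cold groups lay just inside the threshold: it was lost with each of the 6 libraries left out (adjusted p from 0.0834 to 0.21), in edgeR (adjusted p = 0.0502), without the mean-variance trend (adjusted p = 0.166) and with library totals (adjusted p = 0.101), while DESeq2 gave 0.000306. The sign was positive in all of these.

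Most of the remaining transferases passed in no comparison. Gstk1, of mitochondria and peroxisomes, rose by 0.46 in WT Cold (adjusted p = 0.0102) and 0.77 in GCN2 KO Cold (adjusted p = 0.000739). Gstz1, the maleylacetoacetate isomerase of tyrosine breakdown, rose by 0.41 (adjusted p = 0.0314) and 0.70 (adjusted p = 0.0145). Gsto2 fell by 0.89 (adjusted p = 0.0261) and Gstm2 by 0.27 (adjusted p = 0.04995) on the log2 scale in WT Cold, and neither passed in GCN2 KO Cold vs WT RT. The Gstm2 fall lay at the threshold and was lost in DESeq2 (adjusted p = 0.0592). Gsta3 and Gstm1 passed in GCN2 KO Cold vs WT RT, with 0.63 (adjusted p = 0.0211) and 0.33 (adjusted p = 0.0466). The Gstm1 rise was lost in edgeR (adjusted p = 0.0532). Gsta2 was the lowest of the 54 genes per kilobase, with 15 to 57 normalised reads. The mu, alpha and pi class genes lie in clusters of close copies, and Gstp1, Gstp2 and Gstp3 in particular may share reads, so differences between copies of a class are uncertain. The 3 microsomal transferases passed in no comparison, with 0 in DESeq2 or edgeR. None had an unadjusted p under 0.05, beside 40.9% of all genes in WT Cold vs WT RT, 15.3% in GCN2 KO Cold vs WT Cold and 44.4% in GCN2 KO Cold vs WT RT. Mgst1, which also has peroxidase activity, had 15926, 15267 and 16438 in WT RT, 12316, 14294 and 18881 in WT Cold, and 16373, 18438 and 16362 in GCN2 KO Cold.

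Summed over all 54 genes, the normalised read count was 224251 ± 7452 (SD, n = 3) in WT RT, 282248 ± 20630 in WT Cold, then 315752 ± 6301 in GCN2 KO Cold. The 7 peroxiredoxin and sulfiredoxin genes summed to 44978 ± 661, 57184 ± 4360 and 66724 ± 3483, and the 3 superoxide dismutases to 37982 ± 2375, 39992 ± 1385 and 49493 ± 2242, in the same order. The metallothioneins summed to 9616 ± 806, 40200 ± 14030 and 36207 ± 1857, so the spread was widest in WT Cold. These sums follow their most abundant genes. They also depend on the size factors, which were 1.08 to 1.17 in WT RT, 0.979 to 1.03 in WT Cold and 0.865 to 0.920 in GCN2 KO Cold. With library totals, the median log2 fold change of the 54 genes between the cold groups was 0.08 in place of 0.20. Sums as shares of library totals were not taken. The summed brown adipocyte markers, which include genes raised by cold, rose over the groups in the same order, with ranges that did not overlap. The skeletal muscle markers were lowest in GCN2 KO Cold. The part of both in the sums was not tested.

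A list of 71 other genes of the pathway was tested in the same fits, of which 70 were found. In WT Cold vs WT RT 15 of the 70 rose and 13 fell, against the same background of 27.7%, and in GCN2 KO Cold vs WT RT 21 rose and 18 fell, against 34.2%. Between the cold groups none passed in limma or edgeR and 6 in DESeq2, against 3.22% of all genes in DESeq2, and 20 had an unadjusted p under 0.05, against 15.3%. The 8 genes grouped under NADPH supply, on which both reductases depend, were the group with the most falls in WT Cold. Of these 6 fell and none rose, where 14.1% of all genes fell and 13.6% rose. Not all of the 8, Tkt and Taldo1 among them, make NADPH themselves. Tkt (-1.86), Pgd (-1.69), Me1 (-1.59), Taldo1 (-0.97), G6pdx (-0.80) and Idh1 (-0.53) fell, which are enzymes of the pentose phosphate pathway, malic enzyme and cytosolic isocitrate dehydrogenase. Mitochondrial Idh2 (0.07) and Nnt (0.05) did not pass. For GCN2 KO Cold vs WT RT 4 of the 8 fell, where 17.8% of all genes did, and none rose. G6pdx (-0.40, adjusted p = 0.0677) and Idh1 (-0.24, adjusted p = 0.278) did not pass there.

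Of 8 regulators of NRF2 and related factors, 3 rose and 1 fell in WT Cold vs WT RT (13.6% and 14.1% of all genes), and 3 rose and 3 fell in GCN2 KO Cold vs WT RT (16.4% and 17.8%). The rises in both were the small Maf genes, and in WT Cold their log2 fold changes were 1.42 for Maff (adjusted p = 0.00165), 0.84 for Mafk (adjusted p = 0.000801) and 0.47 for Mafg (adjusted p = 0.00383). Nfe2l3, a relative of NRF2, fell in both, with -1.39 in WT Cold (adjusted p = 0.0158) and -1.05 in GCN2 KO Cold (adjusted p = 0.0436). Bach1, a repressor at the same elements, was at -0.08 in WT Cold (adjusted p = 0.644) and fell in GCN2 KO Cold vs WT RT (-0.41, adjusted p = 0.0141), as did Sqstm1, an autophagy receptor that binds KEAP1 (-0.23, adjusted p = 0.042). Keap1, whose product targets NRF2 for degradation, did not pass in WT Cold (-0.09, adjusted p = 0.465) or in GCN2 KO Cold (-0.08, adjusted p = 0.51). Of 3 genes grouped under metal response, 2 rose and none fell in WT Cold vs WT RT (13.6% and 14.1% of all genes). In GCN2 KO Cold vs WT RT 1 rose and none fell (16.4% and 17.8%). Mtf1, the metal response factor, rose by 0.72 in WT Cold (adjusted p = 0.00976) and 0.64 in GCN2 KO Cold (adjusted p = 0.00257). Mt3, another metallothionein, rose by 1.61 in WT Cold (adjusted p = 0.015) and was at 0.96 in GCN2 KO Cold (adjusted p = 0.109). The remaining gene passed in neither comparison and had the smallest log2 fold changes of the 3: 0.21 (WT Cold) and 0.04 (GCN2 KO Cold).

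Among 10 glutaredoxins and thioredoxin-related genes 3 rose and 1 fell in WT Cold, and 6 rose and 2 fell in GCN2 KO Cold, both relative to WT RT. The shares of all genes that rose and fell, to be set beside this and the next groups, were 13.6% and 14.1% in WT Cold and 16.4% and 17.8% in GCN2 KO Cold. The rises in WT Cold were the glutaredoxins Glrx (0.66), Glrx3 (0.38) and Glrx5 (0.26), which use glutathione, while Glrx2 was at 0.01, and the fall was Txndc5 (-0.35, adjusted p = 0.0376). For cysteine supply and glutathione turnover, 1 of 16 genes rose in WT Cold and none fell. This was Slc3a2, the heavy chain of the cystine transporter and of other amino acid transporters (1.60, adjusted p = 0.00102), and its light chain partner Slc7a11 was at 0.87 (adjusted p = 0.142). For GCN2 KO Cold vs WT RT 3 of the 16 rose and 3 fell, among them Slc3a2, which rose by 1.34 (adjusted p = 0.00101), and Chac1, which breaks glutathione down and is a target of the integrated stress response, at -1.17 (adjusted p = 0.0245). Of 11 selenoprotein, methionine sulfoxide reductase and sestrin genes, 3 rose and 2 fell in WT Cold, and 5 rose and 3 fell in GCN2 KO Cold vs WT RT. In WT Cold the rises were Sesn2, a sestrin induced under stress (1.26, adjusted p = 0.00482), Sephs2, which makes the selenium donor for selenoproteins such as Gpx4 and Txnrd1 (1.06, adjusted p = 0.000605), and Selenot (0.32, adjusted p = 0.0424). The falls were another sestrin, Sesn3 (-0.58, adjusted p = 0.0241), and the methionine sulfoxide reductase Msrb3 (-0.71, adjusted p = 0.00113). Among 9 detoxification and other redox enzymes 1 rose and 1 fell in WT Cold, and 1 rose and 2 fell in GCN2 KO Cold vs WT RT. Catalase (Cat), of this group, was at 0.21 in WT Cold (adjusted p = 0.327). Of 5 other genes of haem breakdown and iron storage, 2 rose and 2 fell in WT Cold: the other haem oxygenase Hmox2 rose by 0.67 (adjusted p = 0.00216) and the ferritin light chain Ftl1 by 0.52 (adjusted p = 0.00817), while the biliverdin reductases Blvra (-0.74, adjusted p = 0.00299) and Blvrb (-0.32, adjusted p = 0.031) fell. In WT Cold vs WT RT the summed red blood cell markers were higher without overlap, as Hmox1 was, and the monocyte and macrophage markers were lower without overlap. Between the cold groups both marker sums overlapped, while Hmox1 was lower in GCN2 KO Cold without overlap. The part of either cell type was not tested.

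**Figure D4:**
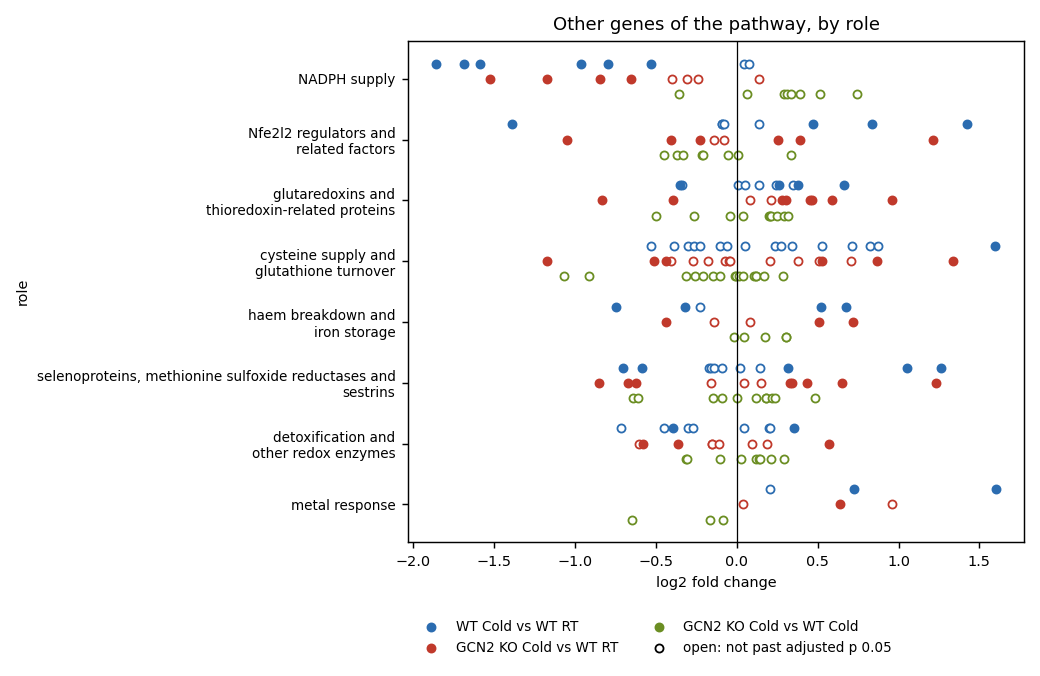
Log2 fold change (x axis) of 70 other genes of the pathway, grouped by role (y axis), in the 3 comparisons (colour). Filled points passed an adjusted p of 0.05. In NADPH supply 6 of 8 fell in WT Cold vs WT RT (14.1% of all genes) and 4 of 8 in GCN2 KO Cold vs WT RT (17.8%). None of the 70 passed in GCN2 KO Cold vs WT Cold (0.405% of all genes).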

How the data were processed

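BAT libraries of 9 mice were analysed, 3 each of WT RT, WT Cold and GCN2 KO Cold. Per the labels and the submitters' processing notes, the authors trimmed reads (Trimmomatic 0.36), aligned them (STAR 2.5.2b, GRCm39), counted reads in exons (featureCounts of Subread 1.5.2) and compared groups with DESeq2. For each of 3 comparisons the deposited table gives each library a signal per gene, equal to the reads counted over a library size factor that is particular to that table, along with the authors' log2 fold changes and p-values, which were not used. Columns name library codes, which were tied to groups by the tables that hold them and to no mouse. Whole reads were recovered for 100% of 297306 values (tolerance 1e-06 of the read number).

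The main test was limma (3.58.1, R 4.3.3) with a mean-variance trend on log2(value + 1) within each table, with Benjamini-Hochberg adjustment over all its genes. The fits were tested on simulated data with known changes. Its p-values rest on the spread between 3 libraries per group, moderated towards a trend over all genes, and 3 against 3 cannot reach an exact permutation p below 0.1. By the study each group held both sexes, but the labels do not give sex and it was not modelled. DESeq2 (1.42.0) and edgeR (4.0.16) were run on the recovered reads. Alternatives covered the pseudocount, a filter on low genes, the trend, library totals, a fit over all 3 groups, and leaving out single libraries. Levels over all 9 libraries are recovered reads divided by size factors set over them, and per-kilobase values use exon lengths of GENCODE M21. Named in every library were members called in any comparison, the 5 with the lowest p between the cold groups, the 10 highest by share of a library's reads, and Nfe2l2, Gclc, Gclm, Gss, Gsr, Nqo1, Hmox1, Srxn1, Mt1 and Mt2; values of other members beyond their fold change were given after they were seen. The members and all gene lists were chosen with earlier results of these data known. Coordinates are those of RefSeq windows on GRCm38.p6, not of the build of the files.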

Additional observations from a re-analysis of the deposited data

How the results depend on the processing

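No paired analysis was possible because the columns carry no replicate numbers. Changing the pseudocount or filtering on a mean normalised count of at least 50 left every count of genes within 1.5 times. The number of the 54 genes past the adjusted p in WT Cold vs WT RT was 12 without the mean-variance trend, and 12 to 21 with single libraries left out. In GCN2 KO Cold vs WT Cold it was 0 without the trend, with library totals and in edgeR, 2 with all 3 groups in the fit, 5 in DESeq2, and 0 to 0 with single libraries left out; of the other pathway genes, 3 passed with all 3 groups and 6 in DESeq2. Single libraries left out gave 21 to 28 genes past the adjusted p in GCN2 KO Cold vs WT RT, 3 to 6 called there, 3 to 4 called in WT Cold vs WT RT, and 27 to 37 and 21 to 37 of the other pathway genes. Of the log2 fold changes of named genes, 919 kept direction and side of the threshold, 57 lost and 15 gained it, and 17 small ones, none past the threshold, changed sign. With library totals these were Gclc (-0.055), Nfe2l2 (-0.0398) and Prdx6 (-0.038) in GCN2 KO Cold vs WT Cold, and Gpx4 (-0.11), Gpx4-ps2 (-0.061), Gsta4 (-0.079) and Mgst1 (-0.10) in GCN2 KO Cold vs WT RT. With single libraries left out, Gsr ran from -0.13 to 0.059, Mgst1 from -0.26 to 0.047 and Sod1 from -0.047 to 0.022 in WT Cold vs WT RT, each changing sign without WT Cold library A and Sod1 also without WT RT library C (0.014). Between the cold groups, Gclc ran from -0.033 (without WT Cold library A) to 0.15, Gpx3 from -0.11 to 0.084 (positive without WT Cold library C or GCN2 KO Cold library A), and Mt1 from -0.24 to 0.17, Mt2 from -0.43 to 0.17 and Prdx6 from -0.052 to 0.22, which changed sign without WT Cold library C. The cause was not tested. Depth limits the lowest genes most, and the lowest member had 13 reads in its poorest library.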
